A study of Mus musculus with 36 samples.

Results

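The genes described here are those that mark GABAergic interneurons, the inhibitory neurons of the cortex. They are Gad1, Gad2, Slc32a1, Dlx1, Dlx2, Dlx5, Dlx6, Lhx6 and Sox6, 9 of the 26709 genes listed in the RNA table. They were taken from a list of marker genes by gene identifier, with no threshold on a measured value, although the list was drawn up with earlier results of these data known. All 9 passed the minimum mean of 10 normalised reads that was set for testing. Cortical neurons of CD-1 mouse embryos, dissected at embryonic day 15 and pooled over embryos, were cultured for 7 days. They were silenced for 2 h with 100 µM AP-5 (an NMDA receptor blocker) and 1 µM TTX (a sodium channel blocker), and then received BDNF (brain-derived neurotrophic factor, 10 ng/ml, a ligand of the TrkB receptor) or KCl (55 mM, a depolarising concentration), and were collected 1, 6 or 10 h later. Control neurons received neither stimulus and stayed in AP-5 and TTX for 3, 8 or 12 h in all. RNA-seq (reads per gene) and ATAC-seq (reads at open chromatin) were each done on 18 samples, 2 in each of 9 groups, and the 6 controls of the 3 times were compared together with each stimulated pair. The study calls the samples of a pair biological replicates, but the labels do not say whether they came from separate cultures, so p-values measure only the spread between these samples, which may be technical.

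Gad1 and Gad2 encode the enzymes GAD67 and GAD65, which make GABA from glutamate, and Slc32a1 encodes VGAT, the transporter that loads GABA into synaptic vesicles. Interneurons of the mouse cortex are born in the ganglionic eminences of the ventral forebrain and migrate into the cortex. The homeobox factors Dlx1, Dlx2, Dlx5 and Dlx6 act in their progenitors and in migrating young neurons, and they lie in the genome as the neighbour pairs Dlx1 with Dlx2 and Dlx5 with Dlx6. Lhx6, a LIM homeobox factor, and Sox6, which acts after it, are required for the interneurons of the medial eminence, which go on to make parvalbumin or somatostatin. Sox6 is also known from the oligodendrocyte lineage and from progenitors, and GAD and VGAT from other GABAergic neurons, so these genes also mark other cells.

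In GRCm38 (mm10, the build of the files; GENCODE annotation), 6 of the genes lie on chromosome 2. Gad1 lies at chr2:70553072-70602014 (plus strand), Gad2 at chr2:22622205-22693874 (plus), Slc32a1 at chr2:158610767-158615748 (plus), Lhx6 at chr2:36081953-36105408 (minus), Dlx1 at chr2:71528113-71533981 (plus) and Dlx2 at chr2:71543408-71546754 (minus). Dlx5 lies at chr6:6877805-6882085 (minus), Dlx6 at chr6:6863334-6868568 (plus) and Sox6 at chr7:115470872-116038796 (minus).

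The sequences that the accessibility results turn on are printed first, 5′ to 3′ on the plus strand, in lower case with motif matches in capitals. The first pair are the stretches before the RefSeq starts of Gad1 and Slc32a1, 2 genes whose RNA rose with both stimuli (RefSeq promoter sequences, GRCm38.p6). Each was ended before the next GENCODE exon of its gene. The Gad1 stretch lies within the GENCODE gene, which begins at chr2:70553072. The others are the central 300 bases of 4 accessibility peaks near the genes that passed the test (RefSeq GRCm38.p6 genome).
Gad1 promoter, chr2:70561879-70562041: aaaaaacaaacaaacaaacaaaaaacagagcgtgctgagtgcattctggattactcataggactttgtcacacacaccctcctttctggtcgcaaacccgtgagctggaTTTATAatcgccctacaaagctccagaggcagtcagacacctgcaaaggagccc
Slc32a1 promoter, chr2:158610508-158610757: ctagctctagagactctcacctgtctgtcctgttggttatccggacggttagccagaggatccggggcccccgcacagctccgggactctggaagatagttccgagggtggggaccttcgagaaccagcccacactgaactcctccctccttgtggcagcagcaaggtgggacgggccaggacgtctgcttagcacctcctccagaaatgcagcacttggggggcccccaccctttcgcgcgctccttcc
Gad2 intronic peak, chr2:22679922-22680221: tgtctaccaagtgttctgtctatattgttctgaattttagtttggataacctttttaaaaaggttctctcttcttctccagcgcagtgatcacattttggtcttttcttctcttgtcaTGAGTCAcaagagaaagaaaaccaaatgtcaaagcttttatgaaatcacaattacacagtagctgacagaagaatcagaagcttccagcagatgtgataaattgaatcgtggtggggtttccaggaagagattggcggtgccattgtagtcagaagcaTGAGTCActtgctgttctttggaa
Gad2 downstream peak, chr2:22704887-22705186: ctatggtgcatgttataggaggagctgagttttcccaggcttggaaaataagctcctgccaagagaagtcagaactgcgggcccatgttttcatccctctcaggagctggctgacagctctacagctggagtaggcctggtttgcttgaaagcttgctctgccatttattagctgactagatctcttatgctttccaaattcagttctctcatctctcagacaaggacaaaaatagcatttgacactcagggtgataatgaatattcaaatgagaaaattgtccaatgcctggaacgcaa
Dlx5 upstream peak, chr6:6885040-6885339: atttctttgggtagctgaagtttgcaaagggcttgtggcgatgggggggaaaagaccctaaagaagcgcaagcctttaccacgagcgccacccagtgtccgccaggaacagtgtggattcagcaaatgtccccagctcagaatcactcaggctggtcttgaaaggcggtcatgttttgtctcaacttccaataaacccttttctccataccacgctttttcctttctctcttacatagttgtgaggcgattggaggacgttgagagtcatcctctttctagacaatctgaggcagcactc
Slc32a1 upstream peak, chr2:158606773-158607072: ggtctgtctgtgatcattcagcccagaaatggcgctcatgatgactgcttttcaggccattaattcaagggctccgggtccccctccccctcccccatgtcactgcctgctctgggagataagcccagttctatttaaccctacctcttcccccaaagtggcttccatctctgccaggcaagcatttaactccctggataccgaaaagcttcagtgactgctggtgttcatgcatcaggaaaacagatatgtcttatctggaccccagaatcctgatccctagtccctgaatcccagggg

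6 motifs were searched on both strands. These were the AP-1 motif TGANTCA and the cAMP response element TGACGTCA, which activity-regulated factors are known to bind. The others were the GC box GGGCGG, the homeobox core TAATTA that Dlx factors can bind, the EGR motif GCGNGGGCG and the TATA box written as TATAAA. The GC box and the EGR motif can overlap each other. In the Gad2 intronic peak the capitals mark 2 copies of TGAGTCA, the AP-1 motif, which begin at bases 119 and 277 of the printed stretch. AP-1 is bound by Fos and Jun dimers, and 16.3% of all 56383 peak windows of the same length held the motif. In the Gad1 stretch the capitals mark a TATA match on the minus strand at base 110. The Slc32a1 promoter stretch, the Gad2 downstream peak, the Dlx5 upstream peak and the Slc32a1 upstream peak held none of these letters, which says nothing about the factors. Promoter entries were found for 7 of the 9 genes (14 windows, several for Lhx6 and Sox6). Of these 14 windows 6 held a GC box, against 35.7% of all 32851 promoters of the same length, and 1 held an AP-1 motif, against 7.81%. The TATA letters were in 4 (13.6% of all promoters), the EGR motif in 1 (5.55%), and the cAMP element and homeobox core in 0 (1.79% and 5.29%). The full Gad1 window of 300 bases also held 1 GC box and 1 EGR motif that do not lie within the printed stretch. The central 300 bases of the Slc32a1 promoter peak held 2 GC boxes and 1 EGR motif.

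Depth was 8508452 to 36699187 reads in genes per RNA library and 1241829 to 6236439 reads in peaks per ATAC library. The immediate early genes rose with each stimulus. Fos changed by 5.63, 1.73 and 1.74 (log2) after 1, 6 and 10 h of BDNF and by 7.30, 5.66 and 4.80 with KCl. The pair of RNA libraries of KCl at 6 h differed most from each other among the 9 pairs. GABAergic marker RNA was present in each library, but so was RNA of other cells. The summed level of 8 astrocyte and radial glia genes was 21751 to 26236 normalised reads in controls and that of Mki67 and Top2a, markers of dividing cells, was 3352 to 5730. Pvalb, the parvalbumin gene, had a mean of 0.605 normalised reads over the libraries and was not tested, and the summed level was 65.1 to 90.1 for 4 microglia genes and 7.68 to 13.7 for 2 endothelial genes in controls, the endothelial marker Cldn5 having a median of 0. In bulk RNA a change in the number of cells of a type and a change in RNA per cell cannot be told apart.

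In silenced neurons, Dlx1 was the most abundant of the 9 transcripts per length. Control levels, as mean normalised reads per kb of exons (n = 6), were 863 ± 33.0 (SD) for Dlx1, 543 ± 47.4 for Dlx2, 395 ± 65.3 for Slc32a1, 352 ± 41.5 for Gad1, 250 ± 21.3 for Gad2, 223 ± 5.87 for Dlx5, 157 ± 10.1 for Lhx6, 79.0 ± 4.92 for Dlx6 and 61.7 ± 7.34 for Sox6. The ranges of Slc32a1 and Gad1 overlapped, as did those of Gad2 and Dlx5. No change with time in silencing was detected, as 0 of the 9 genes and 0.0% of all genes were called between controls of 6 and 1 h and between those of 10 and 1 h (limma). Over all 16209 genes, 164 and 181 had an unadjusted p under 0.05 in these contrasts, and edgeR and DESeq2 on whole reads also called 0 genes.

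The genes for making and loading GABA rose with BDNF at each time and in most tests with KCl. Most calls of the transcription factors were made with KCl. A gene was called differentially expressed (DE) at a limma adjusted p under 0.1 over all genes tested. After 1 h of BDNF, 3 of the 9 genes were higher than controls and 1 was lower, and the same counts were found at 6 h and at 10 h. The genes that rose at each time were Gad1, Gad2 and Slc32a1, and the gene that fell was Dlx6 at 1 h and Sox6 at 6 and 10 h. Over all genes, 21.3% were called higher and 19.0% lower at 1 h, 22.1% and 21.1% at 6 h, then 21.1% and 19.5% at 10 h. With KCl, 6 genes were higher and 0 lower at 1 h, 6 higher and 3 lower at 6 h, and 5 higher and 3 lower at 10 h. The shares over all genes were 26.5% higher and 28.2% lower at 1 h, 33.4% and 33.1% at 6 h, then 29.0% and 28.2% at 10 h. The median log2 fold change of the 9 genes was −0.01, 0.16 and −0.02 under BDNF, and 0.30, 0.22 and 0.27 under KCl. In each of the 6 comparisons a larger share of the 9 genes than of all genes was called higher, with 9 genes behind each share. The comparisons share the controls, and the list was drawn up with earlier results known, so this is no separate support. The median over all genes lay between −0.01 and 0.01.

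**Figure D1:**
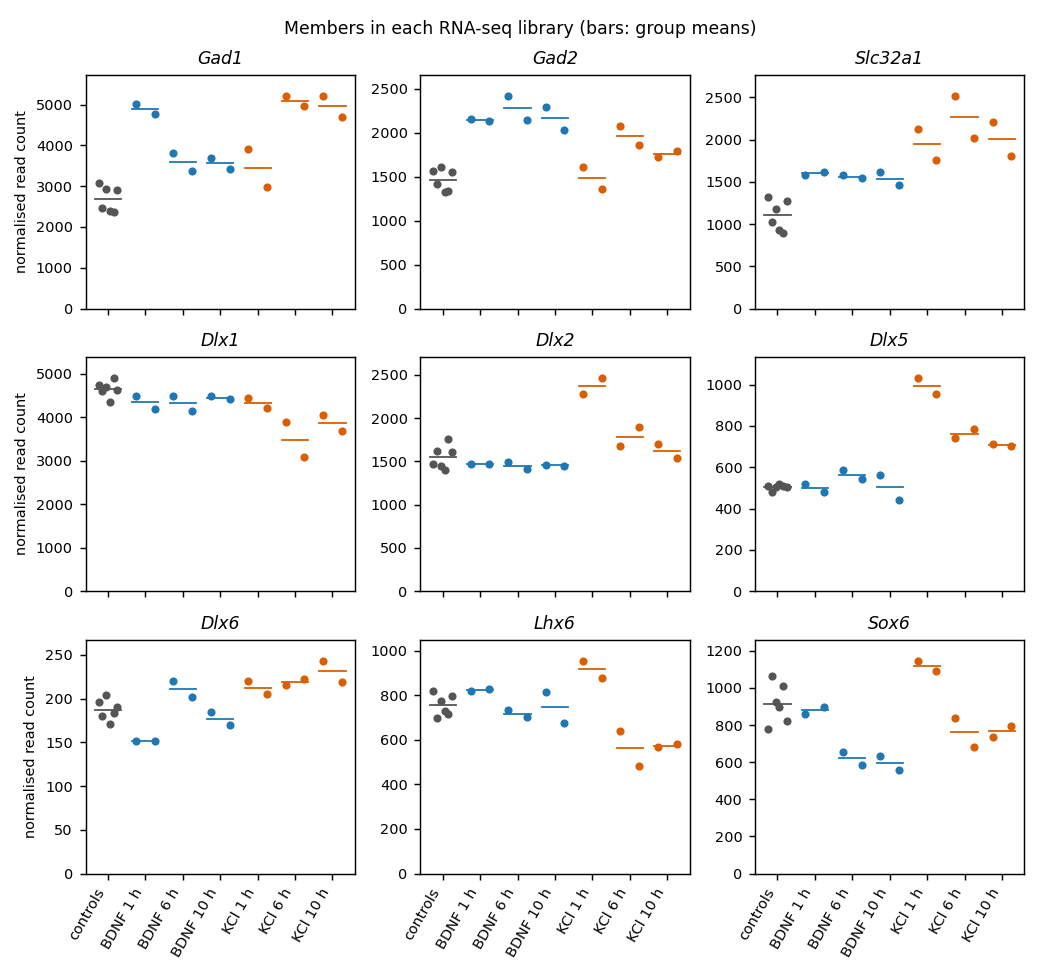
Each panel plots one gene and each point one RNA-seq library (y axis, normalised read count from 0; x axis, the 6 controls together and the 2 libraries of each stimulus and time; bars, group means). Gad1, Gad2 and Slc32a1 lie above all controls at each time of BDNF, while Dlx2 and Dlx5 are highest after 1 h of KCl and Lhx6 drops between 1 and 6 h of KCl.

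Gad1 was highest after 1 h with BDNF and after 6 and 10 h with KCl. Control libraries held 2371, 2684 and 3077 normalised reads (lowest, median, highest; n = 6). BDNF libraries held 5010 and 4763 at 1 h, 3807 and 3379 at 6 h, then 3693 and 3423 at 10 h. KCl libraries held 3923 and 2969 at 1 h, 5214 and 4959 at 6 h, then 5215 and 4701 at 10 h. Each BDNF library and each KCl library of 6 and 10 h lay above all controls, whereas 1 of the 2 KCl libraries of 1 h lay among them. After 1 h of BDNF the log2 fold change was 0.87 ± 0.11 (SE; limma adjusted p = 4.1e-06), followed by 0.42 (0.0046) after 6 h and 0.41 (0.0067) after 10 h. KCl gave 0.35 (0.011) at the first time, 0.93 (6.1e-07) at the second and 0.89 (1.9e-06) at the third. Without the higher KCl library of 1 h (replicate A), the change at that time was 0.15 and no longer passed (adjusted p = 0.36). In the order of levels, KCl 6 h, KCl 10 h and BDNF 1 h overlapped each other and stood apart from the other groups.

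Gad2 rose with BDNF at each time, and with KCl at 6 and 10 h. Controls held 1326, 1485 and 1606 normalised reads. BDNF libraries held 2159 and 2134 at 1 h, 2421 and 2143 at 6 h, then 2297 and 2031 at 10 h, all above every control. KCl libraries held 1609 and 1362 at 1 h, 2074 and 1858 at 6 h, then 1723 and 1794 at 10 h, so that the pair of 1 h overlapped the controls. BDNF gave log2 fold changes of 0.55 (limma adjusted p = 2.2e-05), 0.64 (3.9e-06) and 0.56 (2.8e-05). They were 0.02 (0.89), 0.42 (0.00017) and 0.27 (0.012) with KCl. The call at KCl 10 h was lost without the higher of its libraries (adjusted p = 0.11).

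Both GAD genes shifted against each other within a library, in a ratio that was chosen after the values were seen. The ratio of Gad1 to Gad2 was 1.74 to 1.96 in controls. It was 2.23 to 2.32 after 1 h of BDNF, above all controls. After 6 h it was 1.57 to 1.58 and after 10 h 1.61 to 1.69, below all controls. With KCl it was 2.18 to 2.44 at 1 h, 2.51 to 2.67 at 6 h and 2.62 to 3.03 at 10 h, above all controls at each time.

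Slc32a1 rose with both stimuli at each time, with its highest levels under KCl. Controls held 889, 1102 and 1326 normalised reads. BDNF libraries held 1586 and 1622 at 1 h, 1576 and 1541 at 6 h, then 1616 and 1459 at 10 h. KCl libraries held 2128 and 1761 at 1 h, 2520 and 2018 at 6 h, then 2204 and 1811 at 10 h. All 12 stimulated libraries lay above all 6 controls, and each KCl library lay above each BDNF library. On the log2 scale BDNF raised it by 0.55 (limma adjusted p = 0.0072), 0.51 (0.011) and 0.49 (0.016), and KCl by 0.83 (0.00019), 1.05 (1.2e-05) and 0.87 (0.00012). The call at BDNF 10 h was lost without the higher of its libraries (adjusted p = 0.15).

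Reads of Gad1 may be shared with Gad1-ps, a processed pseudogene of Gad1 at chr10:99444044-99445819 (plus strand), since the counting program is not given in the sources used here. Gad1-ps held 550 to 780 normalised reads in controls, 23.1 to 25.6% of the Gad1 value, and it changed by 0.83, 0.51 and 0.51 (log2) under BDNF and by 0.55, 0.90 and 1.04 under KCl. Summed over Gad1 and Gad1-ps, the change of the group means was 0.86, 0.44 and 0.43 with BDNF and 0.39, 0.93 and 0.92 with KCl, close to that of Gad1. Antisense Gad1os held 5.71 to 14.5 normalised reads in controls.

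In the control libraries, Gad1 and Slc32a1 were higher where markers of dividing cells and astrocytes were lower, and so were genes of other neurons. Gad1 held 3077, 2927 and 2906 normalised reads in control libraries 1 h A, 6 h A and 10 h B, in which Mki67 held 1879, 2472 and 2334. In the other control libraries Gad1 held 2462, 2380 and 2371 and Mki67 held 3508, 3236 and 3064. These sets follow no label and were formed from the values, so their separation in Gad1 and Mki67 is no test. Aqp4, an astrocyte water channel, was likewise lower in the first set, at 396 to 511 against 665 to 714. The summed level of 8 glutamatergic genes was higher in the first set, at 9182 to 9425 against 8328 to 8566. That of 6 genes of all neurons was also higher there, at 60278 to 60973 against 54695 to 57952. Gad2, Dlx6 and Lhx6 were higher in the first set too, whereas the ranges of Dlx1, Dlx2, Dlx5 and Sox6 overlapped between the sets. With stimulation, Mki67 held 1619 to 1855 in the libraries of 6 and 10 h of BDNF and 1321 to 1480 in those of KCl, all below every control. The 8 astrocyte and radial glia genes included 5 that fell and 0 that rose at 6 h of BDNF, and 6 that fell and 1 that rose at 6 h of KCl. Over all genes, 21.1% fell and 22.1% rose at 6 h of BDNF, and 33.1% and 33.4% at 6 h of KCl. The summed level of the 8 genes there was 21037 to 21964 and 18987 to 22369 normalised reads. At 1 h neither Mki67 (−0.01 with BDNF, 0.10 with KCl) nor Top2a (−0.07 and 0.08) was called. The part of the other cells in the changes of the 9 genes was not tested.

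**Figure D2:**
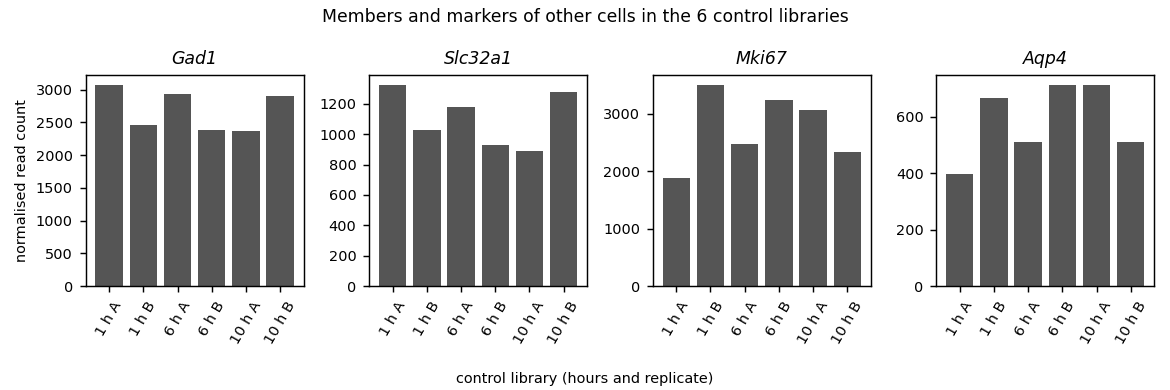
Bars from 0 give the normalised read count of Gad1, Slc32a1, Mki67 (dividing cells) and Aqp4 (astrocytes) in each of the 6 control libraries, named on the x axis by hours and replicate letter. The libraries 1 h A, 6 h A and 10 h B hold the higher values of Gad1 and Slc32a1 and the lower values of Mki67 and Aqp4.

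Among the Dlx factors, 9 of the 12 tests over 4 genes and 3 times passed with KCl and 1 of the 12 with BDNF. Pooled over the same 3 times, 59.5% of the tests over all genes passed with KCl and 41.4% with BDNF. The BDNF call was Dlx6 at 1 h, which held 152 and 152 normalised reads against 171, 187 and 204 in controls, and fell by 0.30 ± 0.09 on the log2 scale (limma adjusted p = 0.018). The call was lost when either BDNF library was left out (adjusted p = 0.12 at the most).

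Dlx5 had the largest response of the 4 genes. Controls held 479, 506 and 518 normalised reads. KCl libraries held 1031 and 953 at 1 h, 741 and 785 at 6 h, then 713 and 701 at 10 h, all above every control. Its log2 fold changes were 0.98 ± 0.08 (limma adjusted p = 1.3e-09), 0.60 (1.2e-06) and 0.49 (2.7e-05). BDNF libraries held 520 and 478 at 1 h, 586 and 541 at 6 h, then 564 and 442 at 10 h, and 0 of their 3 changes (−0.01, 0.16 and −0.01) passed.

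Dlx2 was also highest after 1 h of KCl. Controls held 1403, 1535 and 1762 normalised reads, and KCl libraries held 2279 and 2460 at 1 h, 1683 and 1892 at 6 h, then 1698 and 1536 at 10 h. The libraries of 1 h lay above all controls, and those of 10 h among them. In turn the log2 fold changes were 0.62 ± 0.08 (limma adjusted p = 8.6e-07), 0.21 (0.024) and 0.06 (0.52). The call at 6 h rested on the higher library (0.12 without it, adjusted p = 0.29). BDNF libraries held 1409 to 1493.

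Dlx1, the neighbour of Dlx2, moved the other way. Controls held 4357, 4665 and 4892 normalised reads. KCl libraries held 4435 and 4199 at 1 h, 3887 and 3074 at 6 h, then 4052 and 3687 at 10 h, so that those of 6 and 10 h lay below all controls. Against controls it changed by −0.11 (log2; limma adjusted p = 0.22), −0.43 ± 0.07 (2.4e-05) and −0.27 (0.0038) at the 3 times. The call at 10 h was lost without the lower library (adjusted p = 0.11). The ratio of Dlx2 to Dlx1 was 0.308 to 0.360 in controls. With KCl it was 0.514 to 0.586 after 1 h, 0.433 to 0.615 after 6 h and 0.417 to 0.419 after 10 h, above all controls in each case. Antisense Dlx1as overlaps Dlx1 and held 2.53 to 3.53% of its value in controls, and it was called higher with KCl at each time (0.38, 0.28 and 0.26).

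Dlx6 was the second least abundant gene per length. KCl libraries held 220 and 205 normalised reads at 1 h, 215 and 222 at 6 h, then 243 and 219 at 10 h, and those of each time lay above all controls. The log2 fold change was 0.18 (limma adjusted p = 0.12), 0.22 (0.047) and 0.30 (0.012). The call at 6 h was lost against controls of the same time (adjusted p = 0.13), with DESeq2 and without either library, and that at 10 h without the higher library (adjusted p = 0.16). Unequal change of the neighbours showed in the ratio of Dlx5 to Dlx6, which was 2.47 to 3.03 in controls and 4.64 to 4.69 after 1 h of KCl. The ratio also lay above all controls after 6 h of KCl (3.44 to 3.53) and after 1 h of BDNF (3.15 to 3.42). In the other groups it overlapped them.

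Dlx6os1, the long noncoding RNA on the opposite strand of Dlx6, moved down and then up with KCl. It held 1695 to 2118 normalised reads in controls, 865 to 1177% of the Dlx6 value. KCl libraries held 972 and 1243 at 1 h, 4020 and 4049 at 6 h, then 3251 and 3415 at 10 h. They lay below all controls at 1 h and above all controls later (log2 fold changes −0.83, 1.05 and 0.77, limma adjusted p = 3.7e-08, 6.8e-10 and 1.3e-07). With BDNF the changes were −0.04, −0.11 and −0.07, and 0 of the 3 passed. Whether reads were counted by strand is not given in the sources used here, so reads of Dlx6 and Dlx6os1 where they overlap cannot be told apart.

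Lhx6 and Sox6, the factors of the medial lineage, were both higher after 1 h of KCl and both lower later. Lhx6 held 697, 752 and 818 normalised reads in controls. KCl libraries held 954 and 878 at 1 h, above all controls, and 640 and 484 at 6 h and 567 and 579 at 10 h, below all controls. The log2 fold change was 0.28 ± 0.09 (limma adjusted p = 0.015), −0.44 (0.0003) and −0.39 (0.0012). With BDNF, libraries held 675 to 830 and 0 of the 3 changes (0.13, −0.07 and −0.02) passed.

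Sox6 fell with both stimuli at the late times. Controls held 777, 909 and 1062 normalised reads. BDNF libraries held 861 and 899 at 1 h, 657 and 586 at 6 h, then 631 and 556 at 10 h, the last 4 below all controls. KCl libraries held 1146 and 1094 at 1 h, above all controls, then 840 and 682 at 6 h and 738 and 793 at 10 h. The log2 fold change with BDNF was −0.05, −0.55 ± 0.10 (limma adjusted p = 0.00023) and −0.62 (9.2e-05), and with KCl it was 0.30 (0.019), −0.27 (0.028) and −0.25 (0.046). The calls at 6 and 10 h of KCl were lost against controls of the same time alone (adjusted p = 0.11 and 0.14). They were also lost without the lower library of 6 h (0.45) or of 10 h (0.27). The calls of Lhx6 and Sox6 at KCl 1 h were lost without replicate A (adjusted p = 0.17 and 0.15). Mki67 and Top2a, markers of dividing cells, fell at the same late times (log2 fold changes of Mki67 −0.61 and −0.69 with BDNF, −0.92 and −0.94 with KCl). The summed level of 5 genes of the oligodendrocyte lineage was 5689 to 6163 normalised reads in controls. It was 5230 to 5322 after 6 h of BDNF and 6720 to 7118 after 6 h of KCl. Of these 5 genes, 0 were called higher and 2 lower at 6 h of BDNF (median log2 fold change −0.06). At 6 h of KCl 1 was called higher and 3 lower (−0.21), so most of them did not share the higher sum. Over all genes, 22.1% were higher and 21.1% lower at 6 h of BDNF, and 33.4% and 33.1% at 6 h of KCl. The part of these cells in the change of Sox6 was not tested.

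**Figure D3:**
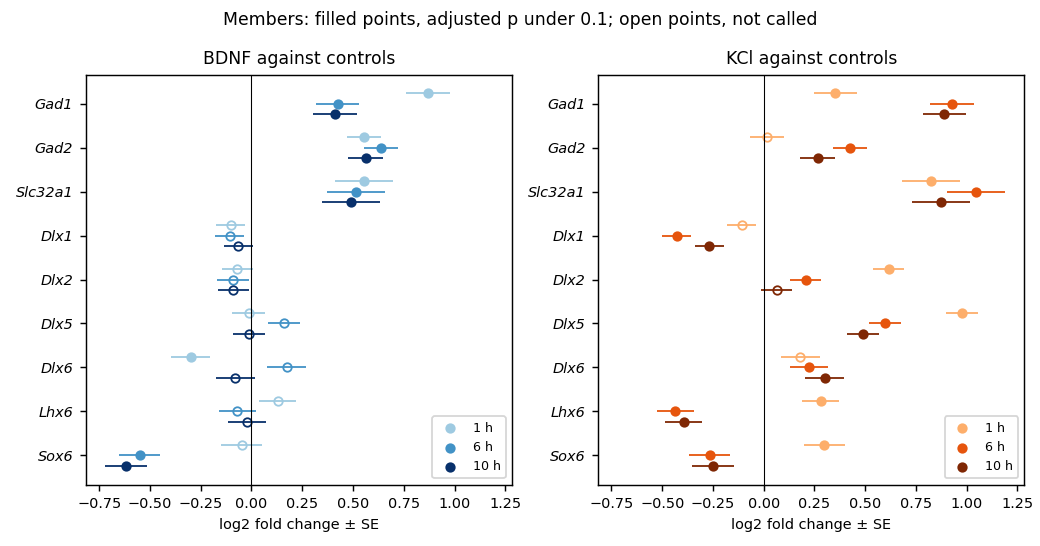
Points give the log2 fold change against the 6 controls with its standard error for each of the 9 genes after 1, 6 and 10 h (left, BDNF; right, KCl; filled points, limma adjusted p under 0.1). With BDNF, Gad1, Gad2 and Slc32a1 lie to the right and the Dlx genes near 0, whereas with KCl Dlx2 and Dlx5 peak at 1 h and Dlx1, Lhx6 and Sox6 lie to the left at 6 and 10 h.

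Of the 54 tests of these genes against controls, 35 passed, where 50.4% of the tests over all genes passed in the same comparisons. 23 of the 35 calls were kept under every left-out library, 32 under all 7 other settings of the fit, and 0 changed sign. The 6 comparisons share the controls.

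The direct test of BDNF against KCl asked which genes told the stimuli apart. At 1 h 6 of the 9 genes passed (42.8% of all genes), at 6 h 8 (57.3%) and at 10 h 7 (45.0%). At 1 h Gad1 and Gad2 were higher with BDNF (log2 differences 0.52 and 0.54, limma adjusted p = 0.0044 and 0.00028), although the call of Gad1 was lost without replicate B of KCl (0.32, adjusted p = 0.10). Dlx2, Dlx5, Dlx6 and Sox6 were higher with KCl (BDNF minus KCl −0.69, −0.99, −0.48 and −0.35). By 6 h Gad1 had turned, and was lower with BDNF than with KCl at 6 h (−0.50, adjusted p = 0.0037) and at 10 h (−0.48, 0.0077). Gad2 stayed higher with BDNF (0.21, adjusted p = 0.089, at 6 h and 0.30, 0.027, at 10 h), although the call at 6 h was lost without replicate A of BDNF or replicate B of KCl, and that at 10 h without replicate A of either stimulus. The call at 6 h was also lost with no filter on low values (adjusted p = 0.13) and in the fit that used time-matched controls (0.12).

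Slc32a1 was lower with BDNF than with KCl at 6 h (−0.53, limma adjusted p = 0.019; without replicate A of KCl 0.19), while the differences at 1 h (−0.27, 0.25) and 10 h (−0.38, 0.10) did not pass the limma test. DESeq2 and edgeR on whole reads called the difference at 10 h (adjusted p = 0.045 and 0.098). Dlx1 and Lhx6 were higher with BDNF at 6 h (0.32 and 0.37, adjusted p = 0.0042 and 0.0094) and at 10 h (0.20 and 0.37, 0.075 and 0.012). Both calls of 6 h, and that of Dlx2 (−0.30, 0.011), were lost without replicate B of KCl at 6 h. At 10 h the calls of Dlx1 and Lhx6 were lost without replicate A of BDNF, and that of Dlx1 also without replicate B of either stimulus, with no filter on low values, and in the fit that used time-matched controls (0.10 in both, limma adjusted p). The calls of Sox6 (−0.35 at 1 h, −0.29 at 6 h and −0.37 at 10 h) were each lost without 1 library of either stimulus, and so was that of Dlx6 at 10 h (−0.38). Dlx5 stayed lower with BDNF at 6 h (−0.44) and 10 h (−0.50), and both calls were kept under each left-out library.

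Within a stimulus, most calls fell between 1 and 6 h, for the 9 genes as for all genes. With BDNF 3 of the 9 genes differed between 6 and 1 h (33.6% of all genes), namely Gad1 (−0.45, limma adjusted p = 0.017), Sox6 (−0.50, 0.0046) and Dlx6 (0.47, 0.0042). With KCl 7 differed (59.6% of all genes). Gad1 and Gad2 rose from 1 to 6 h (0.58 and 0.41, adjusted p = 0.0012 and 0.0022). Dlx1, Dlx2, Dlx5, Lhx6 and Sox6 fell (−0.32, −0.41, −0.38, −0.72 and −0.56), Lhx6 with an adjusted p of 1.6e-05. Between 6 and 10 h, 0 of the 9 genes passed with either stimulus, where 0.216% of all genes passed with BDNF and 22.5% with KCl. At an unadjusted p under 0.05 these counts were 1 of 9 with BDNF and 0 of 9 with KCl.

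The other genes of GABA handling were listed apart from these 9. 8 of 9 were tested, Slc6a13 being under the minimum. With BDNF 4, 1 and 2 were higher and 1, 4 and 2 lower at 1, 6 and 10 h, and with KCl 5, 3 and 2 were higher and 0, 3 and 3 lower. Over all genes, 21.3%, 22.1% and 21.1% were called higher with BDNF at these times, and 19.0%, 21.1% and 19.5% lower. With KCl the shares were 26.5%, 33.4% and 29.0% higher, and 28.2%, 33.1% and 28.2% lower. Slc38a2, a glutamine transporter, had the largest response. It held 2227 to 2524 normalised reads in controls and 8768 and 9506 after 1 h of KCl, and its log2 fold changes with KCl were 1.95, 1.91 and 1.36. With BDNF they were 0.73, −0.38 and −0.18. Slc6a11, which encodes the GABA transporter GAT3 of astrocytes, held 2297 to 2687 in controls and 1203 and 1315 after 6 h of KCl (−0.95, then −1.06 at 10 h, adjusted p = 5.0e-10 and 2.0e-10 by limma). Abat (GABA transaminase) and Aldh5a1, the enzymes that break GABA down, also fell with KCl at 6 h (−0.54 and −0.78) and 10 h (−0.48 and −0.73). Of 8 astrocyte and radial glia genes, 6 were lower and 1 higher at 6 h of KCl (median log2 fold change −0.37). At 10 h 5 were lower and 0 higher (−0.33). Among these genes, Gfap changed by −1.22 and −0.98 and Aqp4 by −1.17 and −0.51. The part of astrocytes in these changes was not tested.

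18 other transcription factors and noncoding RNAs of the interneuron lineage were all tested. With BDNF 5, 1 and 2 were higher and 4, 9 and 5 lower at 1, 6 and 10 h, and with KCl 6, 6 and 4 were higher and 5, 6 and 7 lower. Over all genes, 21.1 to 22.1% were called higher and 19.0 to 21.1% lower with BDNF. With KCl these shares were 26.5 to 33.4% and 28.2 to 33.1%. Nkx2-1, the factor that specifies the medial eminence, fell with BDNF (log2 fold changes −0.47, −0.44 and −0.57, limma adjusted p = 0.065, 0.080 and 0.029) and was not called with KCl (−0.37, 0.02 and −0.14). Its control libraries ranged from 252 to 429 normalised reads. The direct difference between the stimuli and fits without single libraries are not reported here for Nkx2-1.

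Of 23 genes of interneuron subtypes and migration, 22 were tested. Crh and Lamp5 had control means of 2.19 and 9.03 normalised reads and reached the minimum mean of 10 only through stimulated libraries. A count of either as higher is therefore no support. With BDNF 8, 10 and 13 were higher and 4, 3 and 2 lower at 1, 6 and 10 h, and with KCl 7, 12 and 11 were higher and 2, 5 and 4 lower. Their median log2 fold change was 0.17, 0.31 and 0.30 with BDNF and 0.16, 0.40 and 0.41 with KCl. Over all genes, 21.1 to 22.1% were called higher and 19.0 to 21.1% lower with BDNF. With KCl these shares were 26.5 to 33.4% and 28.2 to 33.1%. Sst (somatostatin) held 1611 to 2781 normalised reads in controls, 3698 and 3814 after 6 h of BDNF and 5974 and 7586 after 6 h of KCl. On the log2 scale it rose by 0.54, 0.84 and 0.93 under BDNF and by 0.82, 1.69 and 1.42 under KCl. Npy held 190 to 260 in controls and 476 and 621 after 10 h of BDNF (1.27, limma adjusted p = 3.8e-08). Pnoc, the nociceptin precursor, held 130 to 161 in controls, 286 and 306 after 1 h of BDNF and 504 and 659 after 10 h of KCl.

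Tac1 held 16.5 to 35.3 normalised reads in controls and 81.6 and 113 after 6 h of KCl. Ndnf, a marker of layer 1 interneurons, held 112 to 145 in controls, 82.1 and 88.5 after 1 h of BDNF, and 536 and 605 after 10 h of KCl (2.13, limma adjusted p = 4.4e-11). Crh, the gene of corticotropin-releasing hormone, was near 0 in controls, with 0.00 to 3.92 normalised reads. It held 40.3 and 48.6 after 6 h of BDNF and 132 and 182 after 10 h of KCl, above all controls. A fold is not given for Crh because some controls held 0 reads. Of the genes that fell, Erbb4, the neuregulin receptor of migrating interneurons, changed at 6 h by −0.91 with BDNF and −0.71 with KCl, and Calb2 (calretinin) by −0.66 and −0.68.

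**Figure D4:**
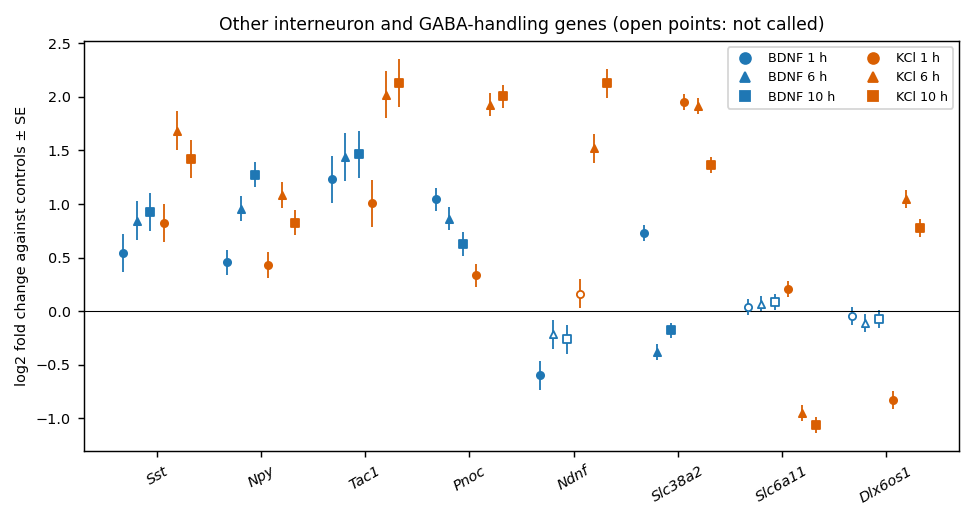
The y axis gives the log2 fold change against the 6 controls with its standard error for 8 further interneuron and GABA-handling genes on the x axis (blue, BDNF; orange, KCl; circles 1 h, triangles 6 h, squares 10 h; open points not called). Sst, Npy, Tac1 and Pnoc lie above 0 with both stimuli at each time, Slc38a2 lies near 2 at 1 and 6 h of KCl, and Dlx6os1 lies below 0 at 1 h of KCl and above 0 later.

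Other neurons moved too. Of 8 genes of glutamatergic cortical neurons, 3, 3 and 2 were higher and 4, 3 and 4 lower with BDNF at 1, 6 and 10 h, and 4, 5 and 3 higher and 2, 1 and 1 lower with KCl. Over all genes, 21.1 to 22.1% were called higher and 19.0 to 21.1% lower with BDNF, and 26.5 to 33.4% and 28.2 to 33.1% with KCl. The median log2 fold change of the 8 genes was −0.31, −0.03 and −0.10 under BDNF, and 0.13, 0.25 and 0.04 under KCl. Their summed level was 8328 to 9425 normalised reads in controls, 7659 to 7829 after 1 h of BDNF, below all controls, and 10125 to 10421 after 6 h of KCl, above all controls. The summed level of 9 genes of striatal projection neurons, which also use GABA, was 1669 to 1914 normalised reads in controls. It was 1496 to 1520 after 1 h of BDNF, below all controls, 2063 to 2086 after 6 h of BDNF and 2311 to 2626 after 6 h of KCl. The 9 genes were split, with 4 called higher and 3 lower at 6 h of BDNF and 4 higher and 4 lower at 6 h of KCl. Their median log2 fold change was 0.01 and 0.11. The summed level of 6 genes of all neurons was 54695 to 60973 in controls, 53089 to 54738 after 6 h of BDNF and 52412 to 59892 after 6 h of KCl.

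Across the 18 libraries the 9 genes did not move as one block. The correlation of log2 values over libraries was above 0 in 18 of the 36 pairs of genes, from −0.69 (Gad2 with Sox6) to 0.87 (Gad1 with Slc32a1). Dlx2 with Dlx5 gave 0.83 and Dlx1 with Lhx6 0.72, while all libraries come from the same controls and stimuli, so that genes of a like response correlate. By the same measure, the genes most like each member over the 18 libraries were Acsl4 (0.970), Pvr (0.969) and Gad1-ps (0.960) for Gad1, Slc7a14 (0.962), Sstr3 (0.942) and Spry4 (0.935) for Gad2, and Syp (0.966), Clstn3 (0.962) and Atp6v0a1 (0.960) for Slc32a1. Tob2 was among the 3 nearest of both Dlx2 (0.928) and Dlx5 (0.942). The nearest of Dlx1 was Nek4 (0.943), of Dlx6 Lrrtm1 (0.895), of Lhx6 Cplx2 (0.942) and of Sox6 Kmt2e (0.949).

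Chromatin at the genes was read from the ATAC-seq peaks that overlapped a gene or lay within 20 kb of it. There were 33, all of which were tested, with 15 at promoters (12 of them promoters of the 9 genes), 9 in introns, 5 between genes and 4 in exons. Promoters were windows from 1000 bp before to 100 bp after a transcription start, and peaks were called differentially accessible (DA) at an edgeR adjusted p under 0.1 over all 56383 peaks. With BDNF 3, 2 and 2 of the 33 passed at 1, 6 and 10 h, against 17.3%, 10.6% and 9.36% of all peaks. With KCl 2, 1 and 2 passed, against 8.34%, 7.49% and 7.87%. In each of these 6 comparisons a smaller share of the 33 peaks than of all peaks passed. These shares rest on 1 to 3 peaks each and on the same controls, so they are no result about these loci. Over all peaks, 63.4%, 72.6% and 75.1% of the KCl calls were higher, and with DESeq2 size factors 53.4%, 58.2% and 54.6%. BDNF against KCl gave 3, 0 and 1 (14.9%, 3.63% and 1.99% of all peaks).

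The promoters of Gad1, Gad2 and Slc32a1 were not called at any time, although the RNA of the 3 genes rose. Among the 12 promoter peaks of the 9 genes, the log2 fold changes ran from −0.54 to 0.77 at 1 h of BDNF, and 0 of the 12 passed there. 1 of the 12, at Dlx6, passed against controls at 1 h of KCl. The Gad1 promoter peak (chr2:70561951-70562354) held scaled counts of 10.6, 29.3 and 39.2 (lowest, median, highest) in controls, 34.2 and 48.8 after 1 h of BDNF and 24.6 and 30.8 after 6 h of KCl. Its change at 1 h of BDNF was 0.70 ± 0.32 (edgeR adjusted p = 0.16). The Slc32a1 promoter peak (chr2:158610584-158610914) held 13.3 to 41.4 in controls and 33.7 and 35.8 after 6 h of KCl (0.34 ± 0.36, 0.69).

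The peak that gained accessibility with BDNF at each time lies in an intron of Gad2, at chr2:22679879-22680264, 56.8 kb after the gene's start. Controls held scaled counts of 14.1, 15.4 and 22.9. BDNF libraries held 49.8 and 59.1 at 1 h, 38.1 and 37.8 at 6 h, then 67.2 and 41.5 at 10 h, and KCl libraries held 39.8 and 24.2, 35.5 and 41.5, and 30.8 and 29.3. All 12 stimulated libraries lay above all controls, on 11 to 83 raw reads per library. The log2 fold change was 1.67 ± 0.29 (edgeR adjusted p = 2.3e-06), 1.14 (0.0053) and 1.64 (5.5e-05) with BDNF, and 0.87 (0.084), 1.13 (0.030) and 0.81 (0.16, not called) with KCl. The call at BDNF 6 h was lost against controls of the same time (0.12), as were those at KCl 1 h (0.30) and 6 h (0.21), both of which were also lost when a KCl library was left out. The differences between BDNF and KCl at this peak did not pass (0.80 ± 0.35 at 1 h, adjusted p = 0.14). It is the peak with the 2 AP-1 motifs printed above, and 4 of the 33 peak windows held that motif.

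A second peak at Gad2 lost accessibility with BDNF, at chr2:22704867-22705205, 11 kb past the gene's end. Controls held 38.2, 43.4 and 58.8 scaled counts, and BDNF libraries held 22.1 and 22.8 at 1 h, 24.4 and 24.5 at 6 h, then 33.1 and 29.4 at 10 h, all below every control. The change was −1.01 ± 0.31 (edgeR adjusted p = 0.014), −0.89 (0.047) and −0.55 (0.40, not called). Each of the 2 calls was lost without replicate B (0.15 and 0.30). With KCl the pair of 1 h held 27.7 and 29.5, also below all controls, and its change of −0.67 was not called (0.17).

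At the Dlx5 and Dlx6 pair, a peak upstream of Dlx5 (chr6:6884978-6885400) held 25.2, 34.2 and 54.1 scaled counts in controls and 66.4 and 57.0 after 1 h of BDNF. Its change of 0.78 ± 0.27 passed (edgeR adjusted p = 0.037), and BDNF was higher than KCl at 1 h (1.25 ± 0.34, 0.0084). The call against controls was lost without replicate A (0.31). At that time Dlx5 RNA changed by 0.98 with KCl and −0.01 with BDNF. The promoter peak of Dlx6 at chr6:6863514-6863798 held 13.3, 16.1 and 32.3 in controls and 32.8 and 37.9 after 1 h of KCl. Its change was 0.97 ± 0.36 (adjusted p = 0.094), and it was lost without replicate B of KCl (0.47) and against controls of the same time (0.13). BDNF was lower than KCl there at 1 h (−1.36 ± 0.46, 0.042).

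2 further peaks fell after 10 h of KCl. In an intron of Gm14204, upstream of Slc32a1 (chr2:158606682-158607162), controls held 21.8, 37.3 and 48.8 scaled counts and KCl libraries 17.0 and 11.7 (−1.40 ± 0.37, edgeR adjusted p = 0.0091). BDNF libraries of that time held 23.0 and 63.5 there, and BDNF was higher than KCl (1.63 ± 0.43, 0.035). In an intron of Gad1 (chr2:70558239-70558419), controls held 13.4, 24.4 and 36.6 and KCl libraries 3.03 and 10.4 (−1.84 ± 0.51, 0.014). Both were lost against controls of the same time (0.13 and 0.25) and when a KCl library was left out (0.23 and 0.39). The RNA of Slc32a1 and of Gad1 was higher than in controls at that time. The remaining calls were the promoter of Actr5 near Slc32a1 (chr2:158624622-158625517, −0.71 at BDNF 10 h, 0.046) and an exon of Lhx6 (chr2:36091358-36091615), lower with BDNF than KCl at 1 h (−1.50, 0.052). The Actr5 call was lost against controls of the same time (0.39) and without replicate A (0.55). No peak at Sox6, Dlx1 or Dlx2 was called.

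**Figure D5:**
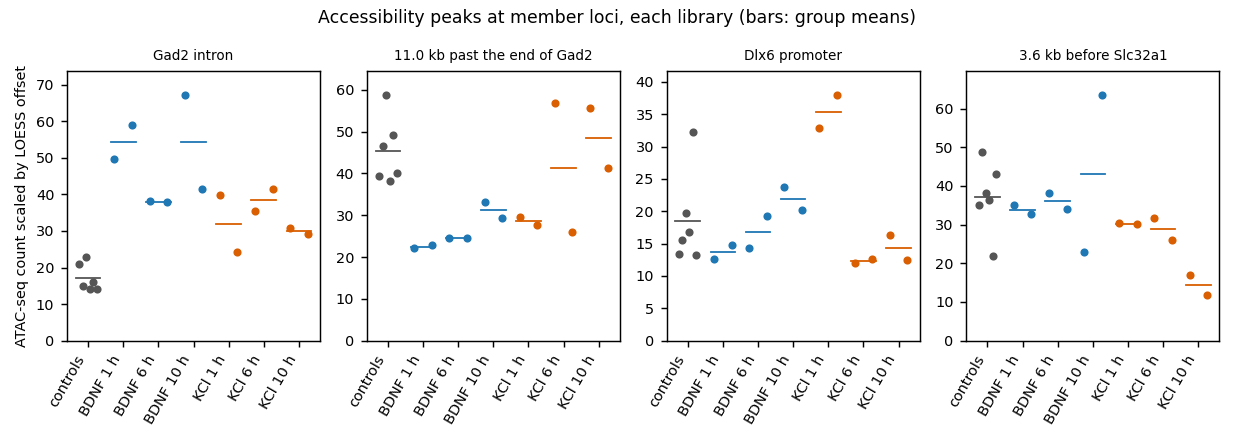
Points are ATAC-seq counts scaled by the LOESS offset in each library at 4 peaks (y axes from 0; x axis, controls and each stimulus and time; bars, group means). At the Gad2 intron all stimulated libraries lie above the controls, past the end of Gad2 the BDNF libraries of 1, 6 and 10 h lie below them, and before Slc32a1 the KCl libraries of 10 h lie below them.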

How the data were processed

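RNA-seq and ATAC-seq were each done on 18 samples. The authors aligned RNA reads to mm10 with TopHat2 and scaled gene counts with DESeq2 size factors. The deposited values are a signal, reads divided by a size factor, and whole reads were recovered from them (100.0% of values within 0.01 of a whole number). ATAC reads were aligned with Bowtie2, peaks were called with MACS2, and the deposited peak table, although called normalised, holds whole-number counts of unequal totals and was treated as raw counts from DiffBind. The counting program and use of strand for RNA are not given in the sources used here.

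Log2(value + 1) of 16209 genes with a mean of at least 10 was tested with limma 3.58.1 (trend and robust), and 56383 peaks with edgeR 4.0.16 (quasi-likelihood test, LOESS offsets), in R 4.3.3, with Benjamini-Hochberg adjustment over all features and calls at an adjusted p under 0.1. A fold change on this log2 scale understates the change of low genes. Alternatives included DESeq2 1.42.0 and edgeR on whole reads, which called 3313 genes higher and 3167 lower after 1 h of BDNF (limma 3459 and 3087) and 4303 and 4499 after 1 h of KCl (limma 4298 and 4565). RNA columns carry replicate letters, and ATAC letters only follow the order of columns. The statistics were tested on simulated data.

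Members and gene lists were chosen with earlier results of these data known. Named were all members, the 3 genes most like each, and, of each list, up to 6 genes called with a log2 fold change of at least 1 in size. Abat, Aldh5a1, Nkx2-1, Erbb4 and Calb2 were named after their values were seen. The ratios of Gad1 to Gad2, Dlx2 to Dlx1 and Dlx5 to Dlx6 were also chosen after the values were seen. Some genes of the lists are counted but not reported here by name. The authors' own comparison columns, which hold fold changes and p-values, were not used.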

Additional observations from a re-analysis of the deposited data

Results flagged for a closer look

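In 21 groups of 6 control values, 2 held a library far from the others, where chance flags about 1 in 20 groups. At the promoter peak of Dlx2 (chr2:71546128-71547034), control 6 h B held 52.2 scaled counts and the other controls 73.0 to 80.1, so that the gap took 0.747 of the range. At the promoter peak of Dlx6 (chr6:6863514-6863798), control 10 h A held 32.3 and the others 13.3 to 19.7, a gap of 0.662 of the range.

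The response differed between 6 and 1 h in the tests of that difference (limma). With BDNF the log2 difference was 0.47 for Dlx6, −0.50 for Sox6 and −0.45 for Gad1. With KCl it was 0.58 for Gad1 and 0.41 for Gad2, and −0.41 for Dlx2, −0.72 for Lhx6, −0.38 for Dlx5, −0.32 for Dlx1 and −0.56 for Sox6.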

How the results depend on the processing

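Of the recomputed counts of calls, 225 stayed within 1.5 times the value reported, 25 were lower and 5 higher, and no call changed sign. Leaving out single libraries gave 3 to 7 RNA calls for KCl 1 h (6 in all libraries; 3 without replicate A), 4 to 7 for BDNF against KCl at 6 h (8; 4 without replicate B of KCl), 4 to 6 at 10 h (7; 4 without replicate A or B of BDNF) and 0 to 1 for KCl 10 h against 6 h (0; 1 without replicate A of 6 h). Peak calls at the loci ran from 1 to 4 for BDNF 1 h (3), 1 to 2 for BDNF 6 h (2), 0 to 1 for KCl 1 h (2), 0 to 1 for KCl 6 h (1) and 1 to 2 for KCl 10 h (2). Against controls of the same time they were 1 for BDNF 10 h, 1 for KCl 1 h, 0 for KCl 6 h and 0 for KCl 10 h. Peaks within 50 kb gave 5 for BDNF 1 h, 2 for KCl 6 h and 4 for KCl 10 h, as more peaks were counted, and DESeq2 size factors gave 4 for KCl 10 h. Apart from the 50 kb window and the smaller number of samples, the cause was not tested. The ATAC comparison of BDNF with KCl was not run with libraries left out.

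With the replicate letter as a block, 4, 4 and 4 genes were called with BDNF and 6, 9 and 8 with KCl at 1, 6 and 10 h, and 6, 8 and 8 between stimuli. The block brought 1 call that was not made without it, Slc32a1 between stimuli at 10 h (−0.38, adjusted p = 0.07 by limma). The letters were not taken as pairs, because deviations of same-lettered samples correlated above 0.1 in 13 of 36 pairs of groups and not in the rest. These correlations ran from −0.31 to −0.0029 in pairs with control 10 h and from −0.08 to 0.42 in the others, and the summed level of the 9 genes was higher in letter A in 8 of 9 groups, a hint from the data and not from the design. The block used the letters as given, although control 10 h B grouped with letter A of the other controls in Gad1 and Mki67. Low counts at the peaks (11 to 83 reads at the Gad2 intron) limit what ATAC-seq could show.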
